A study of Mus musculus with 8 samples.

Results

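The blood-brain barrier genes followed here were a list of 10 genes: Cldn5, Ocln, Tjp1, Slco1a4, Abcb1a, Abcg2, Mfsd2a, Slc2a1, Bsg and Itm2a. All 10 were present among the 32502 genes of the 8 count tables and among the 18473 genes kept for analysis. Their levels were read in endothelial cells and in the other cell classes defined by marker genes, and naïve brains were compared with tumour-bearing brains. The study profiled single cells by Drop-seq, in which each messenger RNA caught on a bead carries a unique molecular identifier (UMI) and is counted at its 3′ end. GL261, a mouse glioma line of the same strain as its hosts, had been implanted as 500 cells into the brain of C57BL/6 mice, by the study's methods of the C57BL/6N substrain. The mice were wild type (WT, Irg1/Acod1 +/+) or homozygous knock-out (KO, Irg1/Acod1 -/-) for Acod1, which encodes the itaconate-producing enzyme of activated myeloid cells and is disrupted by an inserted cassette in the KO. Each genotype gave 1 naïve library and 1 library at each of 3 tumour volumes by magnetic resonance imaging, namely early (5 to 10 mm3), intermediate (20 to 25 mm3) and late (30 to 35 mm3). The labels name 2 mice for each naïve library, which had no tumour, while each tumour-bearing library came from 1 mouse. All animals were perfused, and all tissue was dissociated with enzymes and depleted of myelin. The tumour core was dissected out for the tumour-bearing libraries, so brain region and tumour cannot be told apart in the comparison. The sexes of the WT and KO mice differed at the early and intermediate stages according to the study's methods.

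The blood-brain barrier is formed by the endothelium of brain capillaries, with pericytes and astrocyte endfeet on its outer side. Its endothelial cells are sealed to each other by tight junctions, pump many drugs back into the blood, carry few vesicles, and let glucose and selected lipids through on dedicated carriers. In gliomas the barrier is known to become uneven, with vessels that leak at some places and stay closed at others. Cldn5 and Ocln encode the tight junction membrane proteins claudin-5 and occludin, and Tjp1 encodes ZO-1, which ties them to the actin skeleton. Abcb1a (P-glycoprotein) and Abcg2 (breast cancer resistance protein) encode efflux pumps, and Slco1a4 encodes an organic anion transporter. Mfsd2a encodes a carrier of lysophosphatidylcholine that restrains vesicle transport, Slc2a1 the glucose carrier GLUT1, and Bsg basigin, a partner of monocarboxylate carriers. Itm2a encodes a membrane protein that is abundant in brain endothelium.

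The members lie on 8 mouse chromosomes (GENCODE release M21, GRCm38). Mfsd2a (chr4:122946850-122961188, minus strand) and Slc2a1 (chr4:119108711-119137983, plus strand) share chromosome 4, and Slco1a4 (chr6:141805440-141856199, minus strand) and Abcg2 (chr6:58584523-58695676, plus strand) share chromosome 6. The other loci were Cldn5 at chr16:18776847-18778262 (plus), Ocln at chr13:100496507-100552718 (minus), Tjp1 at chr7:65296165-65527781 (minus), Abcb1a at chr5:8660077-8748575 (plus), Bsg at chr10:79704491-79711969 (plus) and Itm2a at chrX:107397099-107403376 (minus). The 250 bases before the transcription start (RefSeq, GRCm38.p6) were available for 9 of the 10 members, and for 7 of them that start lay within 50 bases of the GENCODE start. The promoters of these 7 differed in their number of CpG dinucleotides, counted as the letters CG, which read the same on both strands. The number was 0 in Slco1a4, 3 in Abcg2, 6 in Itm2a, 12 in Cldn5, 13 in Slc2a1, 14 in Ocln and 17 in Mfsd2a. For Abcg2, with 3 RefSeq starts, and Ocln, with 2, this is the start nearest the GENCODE start. The other starts had 10 and 23 CpGs for Abcg2 and 22 for Ocln. Over the promoters of 27025 genes the median was 6, and 8.26% held none. The promoters with the fewest, 12 and the most CpGs of the 7 are shown, to let their base composition be compared, and are given 5′ to 3′ on the strand of the gene, with each CG in capitals. They span chr6:141856221-141856470 (minus), chr16:18776597-18776846 (plus) and chr4:122961189-122961438 (minus).
Slco1a4: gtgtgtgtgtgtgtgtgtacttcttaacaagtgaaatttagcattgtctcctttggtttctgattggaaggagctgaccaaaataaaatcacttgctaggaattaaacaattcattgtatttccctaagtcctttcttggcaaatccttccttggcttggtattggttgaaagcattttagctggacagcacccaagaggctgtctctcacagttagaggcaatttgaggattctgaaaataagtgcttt
Cldn5: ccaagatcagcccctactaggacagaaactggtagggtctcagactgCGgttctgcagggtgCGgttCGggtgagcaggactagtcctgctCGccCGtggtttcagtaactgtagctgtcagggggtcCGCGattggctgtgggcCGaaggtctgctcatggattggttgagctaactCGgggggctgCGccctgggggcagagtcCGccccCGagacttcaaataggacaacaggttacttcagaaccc
Mfsd2a: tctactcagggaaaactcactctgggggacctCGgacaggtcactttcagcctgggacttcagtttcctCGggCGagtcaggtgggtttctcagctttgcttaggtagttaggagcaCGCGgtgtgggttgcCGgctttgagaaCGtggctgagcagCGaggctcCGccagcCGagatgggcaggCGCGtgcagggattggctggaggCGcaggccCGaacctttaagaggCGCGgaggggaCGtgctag

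Before any filter the library totals were 2885345 to 9950713 UMIs. After the cell filters 5698 cells remained, 454 to 1000 per library, with a median of 2597.5 to 5637.5 UMIs per cell. They fell into 13 clusters, and 2 barcodes were shared between libraries. The endothelial cluster (295 cells) and the mural or fibroblast cluster (32 cells) together held 327 vascular cells. A cell of the endothelial cluster was counted as endothelial when it held more UMIs of endothelial than of mural and fibroblast markers, which left 256 endothelial cells and put 71 in the mural or fibroblast class. The naïve libraries gave 84 (WT) and 90 (KO) endothelial cells. The tumour-bearing libraries gave 30, 2 and 7 (WT early, intermediate and late) and 13, 15 and 15 (KO), 82 in all. WT intermediate, with 2 cells, was left out of the tests. All 14 endothelial markers, none of which was a member, were detected in the endothelial cells of both conditions, at a summed 16751 to 17945 CPM (UMIs per 1000000 UMIs of the class) in the naïve and 14126 to 22360 in the tumour-bearing libraries. No UMI of Acod1 was found in any endothelial cell. Over all kept cells Acod1 was at 0 in both naïve libraries, at 161, 21 and 10 UMIs in WT early, intermediate and late, and at 33, 26 and 41 in the libraries labelled KO. A 3′ count may lie outside the disrupted exons, so it does not check the genotype.

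With the libraries pooled, every member had its highest level in endothelial cells. The classes were clustered from all genes, the members included, so the levels by class are a description and were not tested. The mural or fibroblast class also carried the 14 endothelial markers, which summed to 1795 and 7166 CPM in its naïve libraries. In the 4 tumour-bearing libraries with at least 5 such cells the markers summed to 1048 to 5446 CPM. How much of the member levels of that class came from endothelial transcripts was not tested. Levels are in CPM of all UMIs of the class, and intervals are exact Poisson 95% intervals that cover counting error only. Because a UMI stands for 1 transcript at its 3′ end and not for its length, levels are compared between classes or libraries for each gene, not between genes.

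**Figure D1:**
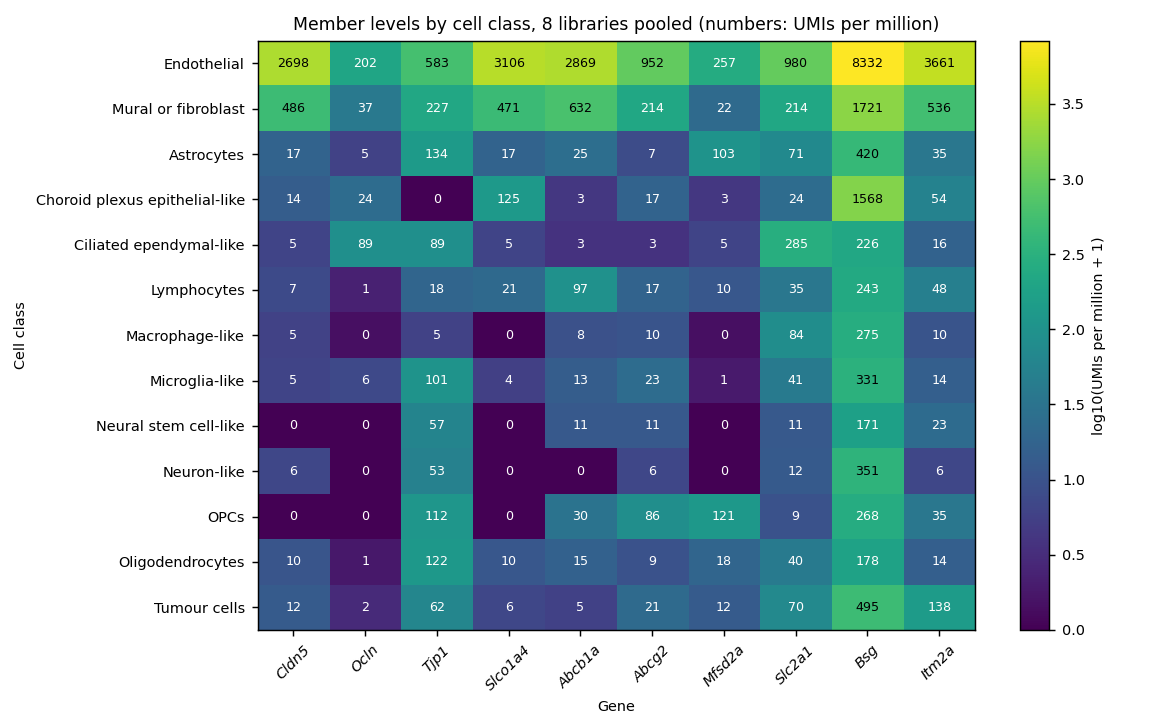
Heat map of the 10 blood-brain barrier genes (columns) in 13 marker-defined cell classes (rows), the 8 libraries pooled. The number in each cell is the level in CPM and the colour its log10 after adding 1. The endothelial row is the highest in every column, and Bsg is the gene found at over 150 CPM in every class.

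Among the junction genes, Cldn5 was the most sharply placed. It stood at 2698 CPM in endothelial cells (2590 to 2810) against 486 in mural or fibroblast cells and 17.0 or less in the classes after them. Ocln reached 202 CPM in endothelial cells and 88.7 in ciliated ependymal-like cells, an epithelium that carries junctions of its own. Tjp1 was the most widespread of the 3, at 583 CPM in endothelial cells, 227 in mural or fibroblast cells, 134 in astrocytes and 122 in oligodendrocytes.

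The transporters were also led by endothelium. Slco1a4 stood at 3106 CPM in endothelial cells, 471 in mural or fibroblast cells and 125 in choroid plexus epithelial-like cells, and no UMI of it was found in the 480 macrophage-like cells. Abcb1a was at 2869 CPM, 632 and, in lymphocytes, 96.8. In the lymphocytes of KO intermediate, where it stood at 209 CPM, 25 of its 45 UMIs came from 1 cell. Its related neighbour Abcb1b, whose reads the counting could have split with it, had 22 UMIs in endothelial cells against 2487 of Abcb1a. Abcg2 was at 952 CPM in endothelial cells, 214 in mural or fibroblast cells and 86.3 in oligodendrocyte precursor cells (OPCs).

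The carriers of nutrients had the broadest patterns. Mfsd2a stood at 257 CPM in endothelial cells (225 to 293), 121 in OPCs (80.3 to 175) and 103 in astrocytes (82.2 to 127), and the intervals of OPCs and astrocytes overlap. With the libraries pooled it was thus 2.13 times higher in endothelium than in the next class, the narrowest lead of the 10 genes. In KO early Mfsd2a was lower in endothelial cells (160 CPM) than in astrocytes (207) and OPCs (197), on 7, 7 and 3 UMIs. The other libraries kept the endothelial lead over astrocytes, and OPCs were found in tumour-bearing libraries only. Slc2a1 stood at 980 CPM in endothelial cells, 285 in ependymal-like cells, 214 in mural or fibroblast cells, 83.7 in macrophage-like cells and 69.7 in tumour cells. Bsg was at 8332 CPM in endothelial cells, 1721 in mural or fibroblast cells, 1568 in choroid plexus epithelial-like cells, whose intervals again overlap, and 495 in tumour cells. Itm2a, at 3661 CPM, was 6.82 times higher in endothelial cells than in mural or fibroblast cells (536 CPM) and was followed by tumour cells at 138 CPM.

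The share of each member's UMIs that came from endothelial cells was lower in the tumour-bearing than in the naïve libraries. Endothelial cells were 18.8% and 20.0% of the named cells other than tumour cells in the naïve libraries and 2.74 to 6.83% in the tumour-bearing ones. In the naïve libraries endothelial cells held 94.1% of all Cldn5 UMIs, 92.9% of Itm2a, 91.1% of Abcb1a, 90.4% of Slco1a4 and 87.1% of Abcg2 UMIs. In the tumour-bearing libraries they held 54.9% of Cldn5, 14.7% of Itm2a, 62.9% of Abcb1a, 73.4% of Slco1a4 and 22.3% of Abcg2 UMIs. Endothelial cells thus held most UMIs of Slco1a4, Abcb1a and Cldn5 in both conditions, while tumour cells of the tumour-bearing libraries held 14.2% of the Slco1a4 and 12.5% of the Abcb1a UMIs. Their 30.6% of Cldn5 came mostly from 1 cell, described with the tumour cells. That cell also held 62 of their 142 Slco1a4 and 57 of their 139 Abcb1a UMIs. In WT intermediate 50 Slco1a4 UMIs came from 4 tumour cells, and 34 Abcb1a UMIs likewise from 4. Of the 3394 tumour cells of these libraries, 0.707% held a Slco1a4, 1.15% an Abcb1a and 0.825% a Cldn5 UMI. Tumour cells held 80.7% of the Itm2a, 80.5% of the Tjp1, 79.2% of the Bsg and 76.5% of the Slc2a1 UMIs.

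The question of the design was whether endothelial cells of tumour-bearing brains carried these transcripts at other levels than those of naïve brains. In tumour-bearing brains all 10 members had a lower fitted level than in naïve brains, and none of the 10 passed the test. UMIs were summed over the endothelial cells of each library with at least 5 such cells (2 naïve, 5 tumour-bearing) and compared by the quasi-likelihood test of edgeR, allowing for genotype, with Benjamini-Hochberg adjustment over all 1086 genes tested. The test called 52 genes (4.79%), of which 44 were higher and 8 lower (0.737%), and 0 of the 10 members. At an unadjusted p under 0.05 it gave 2 members on the lower side, Tjp1 and Itm2a, beside 6.45% of all genes, and DESeq2 gave 0 called members and 2 at that unadjusted threshold. A lower fitted value was found for 50.6% of all genes tested. The median log2 change of the members was -0.37, beside -0.01 over all genes tested. Each library came from 1 mouse or 1 pool, so the spread between libraries includes both animals and stages.

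**Figure D2:**
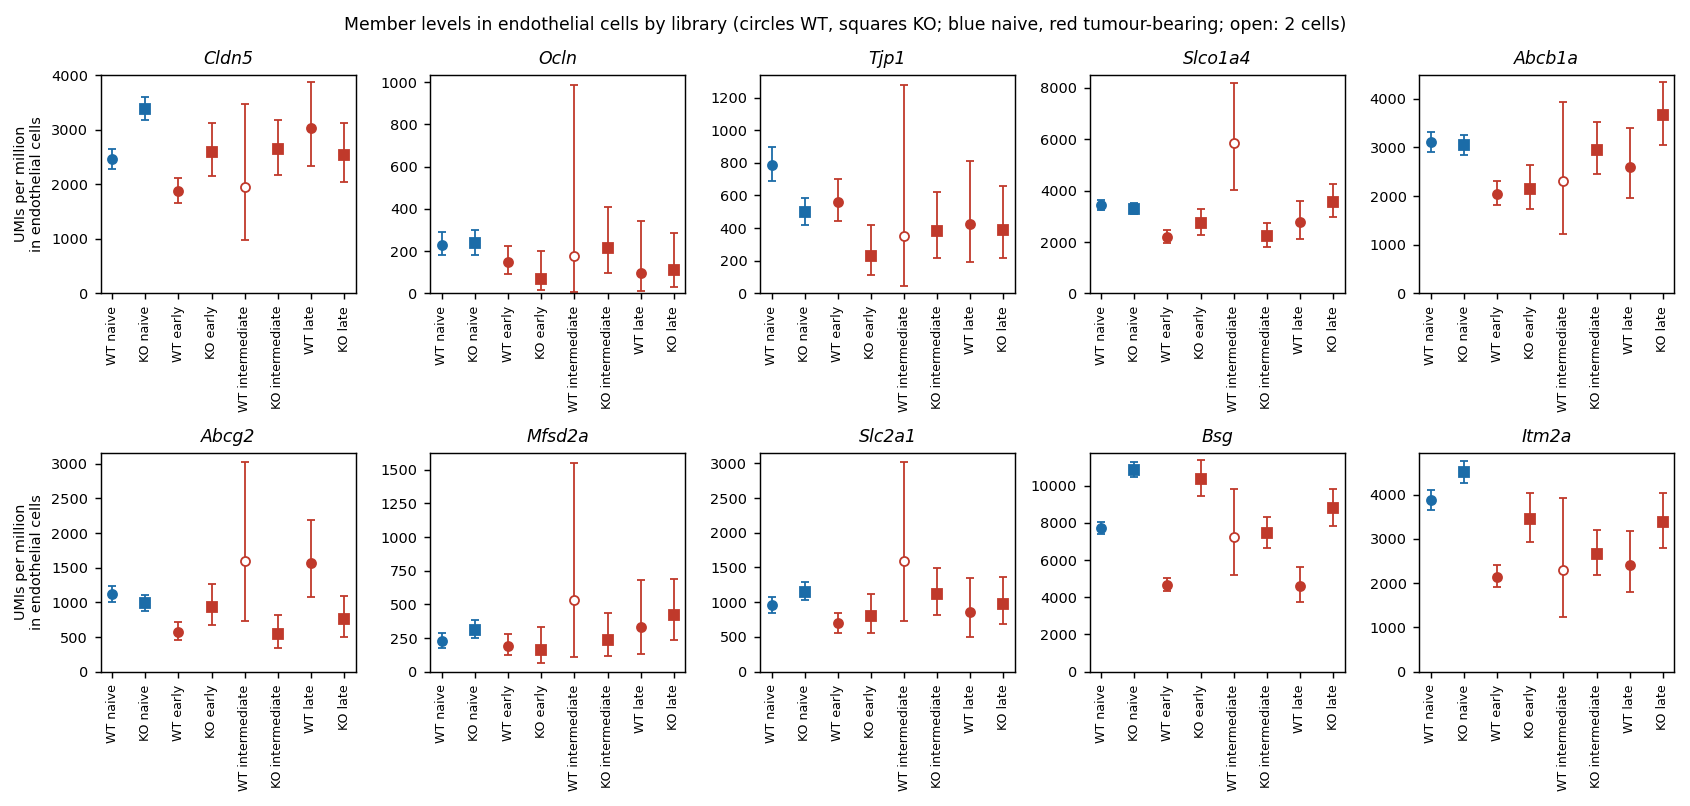
Level of each blood-brain barrier gene in endothelial cells in CPM (vertical axes, from 0), with 1 point for each library, circles for WT and squares for KO, naïve in blue and tumour-bearing in red. Bars are exact Poisson 95% intervals, and the open circle is WT intermediate with 2 cells. For Ocln and Itm2a all tumour-bearing points lie below both naïve points, while for Cldn5, Mfsd2a and Slc2a1 they intermingle.

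Of the junction genes, Ocln differed most. It stood at 231 CPM in WT naïve and 237 in KO naïve, and at 146 in WT early, 68.5 in KO early, 214 in KO intermediate, 94.7 in WT late and 112 in KO late. All 5 tumour-bearing libraries lay below both naïve libraries. The log2 change was -0.83 (SE 0.42, 95% interval -1.70 to 0.04, adjusted p = 0.334, edgeR's quasi-likelihood test). These levels rest on 70 and 66 UMIs in the naïve libraries and on 20, 3, 9, 2 and 4 in the tumour-bearing ones. Ocln passed the filter on low counts through the naïve libraries alone, since 0 of the 5 tumour-bearing libraries reached the 228 CPM that the filter asks for.

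Tjp1 stood at 788 CPM in WT naïve and 496 in KO naïve, and at 562, 228, 381, 426 and 391 in WT early, KO early, KO intermediate, WT late and KO late. The groups overlapped through WT early alone, which lay between the naïve libraries. The log2 change was -0.62 (SE 0.29, interval -1.23 to -0.01, adjusted p = 0.302). Cldn5 stood at 2465 CPM in WT naïve and 3390 in KO naïve, and at 1877, 2604, 2641, 3032 and 2541 in the 5 tumour-bearing libraries in the same order. The groups overlapped almost wholly, with only WT early below both naïve libraries. The log2 change of Cldn5 was -0.27 (SE 0.28, adjusted p = 0.704), with an interval of -0.86 to 0.31 that holds both a fall and a rise. The intervals of the 3 junction genes overlap, and a difference between the genes was not tested.

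Of the transporters, Slco1a4 stood at 3434 CPM in WT naïve and 3293 in KO naïve, and at 2198, 2741, 2237, 2795 and 3574 in WT early, KO early, KO intermediate, WT late and KO late. In 4 of the 5 tumour-bearing libraries it lay below both naïve libraries, and KO late lay above them. Its log2 change was -0.38 (SE 0.29, adjusted p = 0.574). KO late was the highest library for Abcb1a as well, with 3104 CPM in WT naïve, 3048 in KO naïve, 2045, 2147, 2950 and 2606 in the next 4 libraries and 3658 in KO late. The log2 change of Abcb1a was -0.28 (SE 0.30, interval -0.89 to 0.33, adjusted p = 0.708). Abcg2 stood at 1117 CPM in WT naïve and 985 in KO naïve, and at 577, 936, 547, 1563 and 754 in the tumour-bearing libraries. Here WT late, with 33 UMIs from 7 cells, was the highest of the libraries tested, and the other 4 lay below both naïve ones. The log2 change of Abcg2 was -0.36 (SE 0.33, adjusted p = 0.644).

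Of the nutrient carriers and their partner, Mfsd2a was the member with the smallest difference. It stood at 224 CPM in WT naïve and 313 in KO naïve, and at 190, 160, 238, 332 and 419 in WT early, KO early, KO intermediate, WT late and KO late. The early libraries lay below and the late libraries above both naïve ones, on 26, 7, 7 and 15 UMIs, so an order over stages was not detectable at this depth. The log2 change was -0.16 (SE 0.33, interval -0.84 to 0.51, adjusted p = 0.893), and it turned to 0.017 when KO early was left out. Slc2a1 stood at 956 CPM in WT naïve and 1154 in KO naïve, and at 694, 799, 1118, 853 and 977 in the tumour-bearing libraries, with a log2 change of -0.33 (SE 0.29, adjusted p = 0.631). Its 2 groups overlapped in KO intermediate and KO late. Bsg stood at 7708 CPM in WT naïve and 10867 in KO naïve, and at 4674, 10392, 7448, 4595 and 8795 in the 5 tumour-bearing libraries. Its log2 change was -0.54 (SE 0.29, interval -1.15 to 0.06, adjusted p = 0.367). For Bsg the KO library was the higher of the pair in the naïve, early and late conditions.

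Itm2a was the second gene whose groups did not overlap. It stood at 3882 CPM in WT naïve and 4511 in KO naïve, a mean of 4197 ± 445 (SD, n = 2), and at 2140, 3449, 2665, 2416 and 3378 in WT early, KO early, KO intermediate, WT late and KO late, a mean of 2810 ± 582 (SD, n = 5). The log2 change was -0.68 (SE 0.28, interval -1.25 to -0.11, adjusted p = 0.204). The 2 cells of WT intermediate, with 5649 UMIs in all, were not tested. In them Ocln (177 CPM), Itm2a (2301), Cldn5 (1947), Tjp1 (354), Abcb1a (2301) and Bsg (7258) lay below both naïve libraries, and Slco1a4 (5842), Abcg2 (1593), Slc2a1 (1593) and Mfsd2a (531) above both. Among all genes tested, 7.73% had every tumour-bearing library below both naïve libraries. Of the 10 members 2 had this order, 1 of them Ocln, which the filter kept through its naïve level alone.

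**Figure D3:**
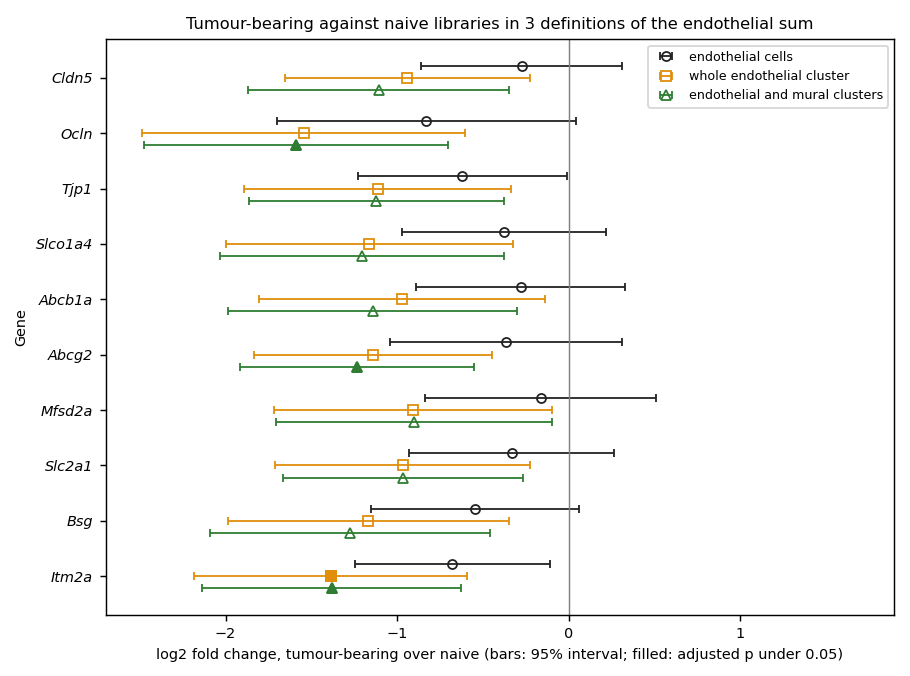
Log2 change of each blood-brain barrier gene between tumour-bearing and naïve libraries (horizontal axis) with its 95% interval, for endothelial cells (circles), the whole endothelial cluster (squares) and the endothelial and mural clusters together (triangles), filled where the adjusted p was under 0.05. All points lie left of 0, between -0.83 and -0.16 for endothelial cells and between -1.59 and -0.90 for the summed clusters, where Ocln, Abcg2 and Itm2a are filled.

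The size of these differences depended on which vascular cells were counted. When the whole endothelial cluster was summed, without setting aside the cells richer in mural or fibroblast markers, the members' log2 changes ran from -1.55 to -0.91 with a median of -1.13, and Itm2a fell by 1.39 (adjusted p = 0.0436, edgeR's quasi-likelihood test, 162 of 2689 genes, or 6.02%, called). In the endothelial and mural clusters summed together, a choice added after the data had been seen, 3 members fell. Ocln fell by 1.59 (adjusted p = 0.0350), Itm2a by 1.38 (adjusted p = 0.0326) and Abcg2 by 1.24 (adjusted p = 0.0337), where 7.7% of 3154 genes were called and 1.55% were called lower. Of 23 tested pan-endothelial genes in these clusters, 22 also had a negative fitted value and none was called. Their median was -0.80, beside -1.17 for the members. The summed level of all 10 members in these clusters was 22515 CPM in WT naïve and 23996 in KO naïve, and 10105, 14315, 6863, 9917, 5526 and 16426 in WT early, KO early, WT intermediate, KO intermediate, WT late and KO late. Every tumour-bearing library lay below both naïve ones there, as it did for each of the members but Mfsd2a, where 13.2% of the genes tested had this order. In the endothelial cells alone the same sum was 23908 CPM in WT naïve and 28294 in KO naïve against 15104, 23524, 20439, 18712 and 24598 in the 5 tumour-bearing libraries, so that KO late lay between the naïve libraries.

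The make-up of the vascular cells differed between libraries. Mural or fibroblast cells were 25 of 199 vascular cells in naïve brains and 46 of 128 in tumour-bearing ones. By library their share was 8.70% in WT naïve and 15.9% in KO naïve, and 28.6%, 66.7% and 50% in WT early, intermediate and late and 35.0%, 46.4% and 16.7% in KO early, intermediate and late. KO late lay next to KO naïve in this share of cells, on 3 of 18 vascular cells, and it had the highest summed member level of the tumour-bearing libraries. Of the vascular UMIs, mural or fibroblast cells held 34.3% in KO late. They held 6.52% in WT naïve, 23.6% in KO naïve and 45.6 to 82.5% in the other tumour-bearing libraries. The 8 fibroblast markers summed to 1127 and 3128 CPM in the vascular clusters of the naïve libraries and to 3282 to 27555 in those of the tumour-bearing libraries, and the 14 endothelial markers to 15401 and 15775 against 5528 to 10890. In endothelial cells alone the mural markers were at 1341 to 1404 CPM in naïve and 428 to 2096 in tumour-bearing libraries. Their fibroblast markers were at 386 to 406 against 379 to 1119 CPM. The assignment was within a factor of 2 of the dividing line in 16 naïve and 17 tumour-bearing cells. Fewer endothelial cells within the clusters and less transcript per endothelial cell cannot be told apart in the cluster sums.

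**Figure D4:**
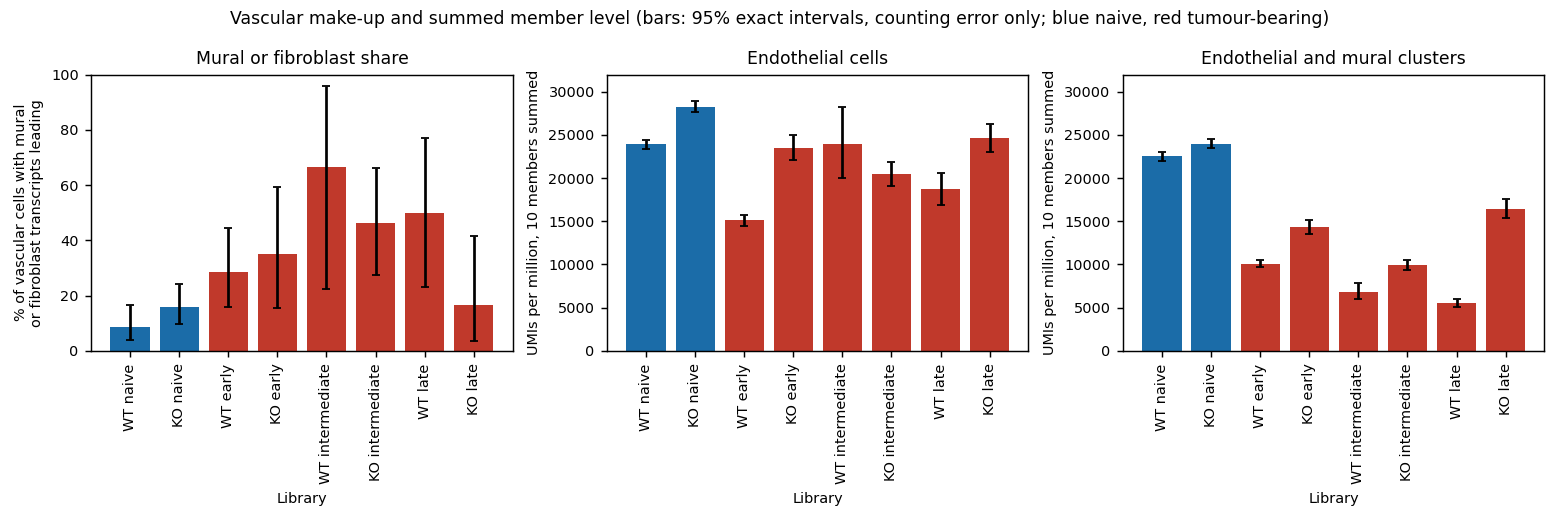
Share of vascular cells in the mural or fibroblast class (left, %), and summed level of the 10 blood-brain barrier genes in CPM in endothelial cells (middle) and in the endothelial and mural clusters (right), 1 bar for each library, naïve in blue and tumour-bearing in red. Error bars are exact 95% intervals for counting error only. In the right panel the naïve bars stand at 22515 and 23996 CPM and the tumour-bearing bars between 5526 and 16426, while in the middle panel KO late stands between the naïve bars.

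Markers of other cells also differed in the endothelial cells, in both directions. The 6 tumour cell markers summed to 890 to 927 CPM in naïve and 1166 to 5306 in tumour-bearing libraries, with 4 of the 6 (Cd44, Col9a1, Col11a1 and Myc) at 0 in the naïve ones. The 9 microglia-like markers stood at 1761 to 1869 against 2427 to 4737 CPM, and the 8 macrophage-like markers at 811 to 989 against 1642 to 3269. The 8 astrocyte markers were lower, at 484 to 1104 CPM in naïve and 94.7 to 358 in tumour-bearing libraries, as were the 8 neuron-like markers, at 59.3 to 64.7 against 22.8 to 47.6. The 8 choroid plexus epithelial-like markers were at 412 to 1395 against 94.7 to 503 CPM. Red blood cell markers stood at 6087 CPM in WT naïve and at 35.9 in KO naïve, and at 0 to 540 in the tumour-bearing libraries. Their part in the members' values was not tested.

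The share of endothelial cells with at least 1 UMI of a member gave a second view. Ocln was found in 47.1% of 174 naïve and 30.5% of 82 tumour-bearing endothelial cells, and in 28.0% and 17.4% after every cell was thinned to 1500 UMIs, which left out 2 naïve cells and 1 tumour-bearing cell. Tjp1 was found in 73.6% and 68.3% of the cells, and in 55.9% and 47.7% after thinning. Abcb1a was found in 100% and 96.3%, and in 98.1% and 88.6% after thinning. The shares of Itm2a were 98.9% and 100% before thinning and 97.4% and 91.3% after it, so that its order turned. Mfsd2a was found in 44.8% and 43.9% of the cells, and in 29.4% and 28.5% after thinning. The remaining 5 members were found in 82.9 to 100% of the cells of either condition. In the 478 tumour-bearing macrophage-like cells, which should lack the junction genes and most of the transporters, the shares were 0.628% for Cldn5, 0.209% for Ocln, 1.88% for Abcb1a and 0% for Slco1a4, a count of 0 that allows up to 0.628% of cells with a UMI and sets no limit on the cells that express it. Median depth was 2004 to 3259 UMIs per cell in the endothelial cells of the libraries and 3163.5 in the macrophage-like cells. Bsg (52.3%) and Slc2a1 (24.1%) were by contrast common in macrophage-like cells.

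Other genes of the barrier were counted from lists chosen by function. They are read beside the 0.737% of all genes tested that were called lower, the 50.6% with a lower fitted value and the median of -0.01. Of 18 other junction genes, 6 could be tested in endothelial cells and none passed, all 6 with a negative fitted value and a median log2 change of -0.17. Of 26 other efflux and solute transporters, 13 were tested, of which 1 passed, on the lower side. Of the 13, 10 had a negative fitted value, with a median of -0.36. None of 8 tested genes of transcytosis and caveolae passed (15 listed, median -0.17), nor did any of 4 tested genes of Wnt and beta-catenin signalling (23 listed, median -0.41), the pathway that induces barrier genes in brain endothelium. None of 20 tested pan-endothelial genes passed (24 listed, median -0.14). At an unadjusted p under 0.05 the counts were 4 efflux and solute transport genes and 1 Wnt gene, each with a negative value, 2 pan-endothelial genes, 1 of each sign, and 0 junction and 0 transcytosis genes. Of all genes tested 6.45% passed that threshold on the lower side. In each of the transport, transcytosis, Wnt and pan-endothelial lists 1 tested gene was below the 228 CPM of the filter in both naïve libraries, and so was kept through its tumour-bearing level. A gene that reached it in 1 naïve library only also needed a tumour-bearing library to be kept, since the filter asks for 2 libraries.

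Among 14 genes of vessel activation and leakage, 2 could be tested. Angpt2, the antagonist ligand of the endothelial receptor Tie2, rose by 3.70 on the log2 scale (SE 0.79, adjusted p = 0.00444). It had 5 and 6 UMIs in the naïve libraries and 74, 8, 2, 0 and 11 in WT early, KO early, KO intermediate, WT late and KO late, so most of its UMIs came from WT early, without which it did not pass the filter on low counts. Both naïve libraries were below the 228 CPM of the filter, so Angpt2 was tested only because it was high in tumour-bearing libraries, which favours a rise. Plvap, the protein of fenestrated endothelium, had 3 UMIs in KO intermediate and none elsewhere, and was not tested. The tip cell ligand Apln had 197 UMIs in WT early and did not pass the filter on low counts either. Of 8 arterial genes, 1 could be tested, Gkn3, which fell by 1.93 (SE 0.37, adjusted p = 0.00148), and did not pass without KO naïve (adjusted p = 0.105). None of 7 venous genes could be tested. All 10 immediate early genes rose, from 1.55 for Ier2 to 5.27 for Fosb (adjusted p = 2.32e-08), with Fos at 105 and 176 CPM in the naïve and 2558 to 5116 in the tumour-bearing libraries. Ier2 did not pass without KO naïve (adjusted p = 0.557) or without WT early (adjusted p = 0.0778). Of the 10, 6 were below the 228 CPM of the filter in both naïve libraries, Fos and Fosb among them. Dusp1, Ier2 and Btg2 reached it in 1 naïve library only. The filter asks for that level in 2 libraries, so all of these were kept through their tumour-bearing levels. Jun reached it in both naïve libraries. Immediate early genes are induced within minutes by many stimuli, tissue dissociation among them. Their part in the members' values was not tested.

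**Figure D5:**
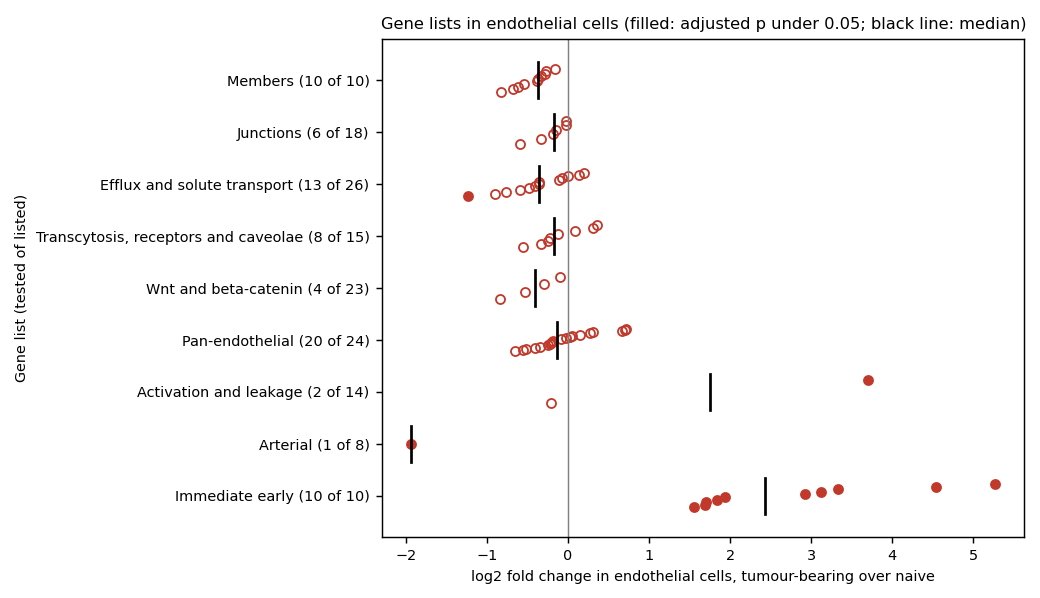
Log2 change between tumour-bearing and naïve libraries in endothelial cells (horizontal axis) for the genes of each list that could be tested (rows), 1 point for each gene, filled where the adjusted p was under 0.05, with a black line at the median. The 10 immediate early genes lie at 1.55 or above, and the 10 blood-brain barrier genes, in the top row, lie between -0.83 and -0.16 with none filled.

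The KO and WT libraries were compared in endothelial cells within the naïve, early and late conditions (3 libraries of each genotype, condition as a block). None of 2059 genes passed edgeR's quasi-likelihood test (0%), with 107 at an unadjusted p under 0.05, and DESeq2 called 0 with 24 at that unadjusted threshold. Of the members, Bsg had the largest value, a log2 change of 0.84 in KO against WT (SE 0.30, interval 0.24 to 1.45, adjusted p = 0.583). It was higher in KO in 3 of 3 conditions, at 10867 against 7708, 10392 against 4674 and 8795 against 4595 CPM. Tjp1 was lower in KO in 3 of 3 conditions, with a log2 change of -0.74 (SE 0.30, interval -1.36 to -0.13, adjusted p = 0.795). The values of the other 8 lay between -0.15 and 0.44. The 10 immediate early genes all had a positive value here, with a median of 0.86 and none called, while 8 of them had an unadjusted p under 0.05. The difference of the tumour effect between genotypes was also fitted, with members between -0.35 and 0.42. None of 1086 genes passed that test, 11 had an unadjusted p under 0.05, and the naïve arm had 1 library for each genotype.

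In the 3 glial classes, Bsg and Tjp1 were the members that passed the filter on low counts. Bsg passed it in astrocytes, where it had a log2 change of -0.52 (adjusted p = 0.808, 0.974% of 616 genes called). In oligodendrocytes the log2 changes were 0.07 for Bsg and 0.02 for Tjp1 (2.55% of 2670 called), and in microglia-like cells 0.08 for Bsg and -0.53 for Tjp1 (adjusted p = 0.343, 16.4% of 3139 called). None of these passed. The glial cells of KO naïve carried more UMIs of the endothelial members than those of WT naïve. Over astrocytes, oligodendrocytes and microglia-like cells together, Abcb1a had 4 UMIs in 276 WT naïve cells, 42 in 286 KO naïve cells and 9 in 469 tumour-bearing cells. Itm2a had 4, 43 and 16 UMIs in the same 3 sets, and Cldn5 had 4, 22 and 6. Ocln and Mfsd2a did not share this order between the naïve libraries, with 4 UMIs in WT naïve against 2 in KO naïve and 36 against 35. Slc2a1 differed little, with 30 against 34.

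The tumour effect was compared between endothelial and other classes of the same libraries, with library as a block. Against microglia-like cells, 2 of the 10 members passed, where 4.84% of 4281 genes did. For Abcb1a the tumour effect was higher in endothelial than in microglia-like cells by 4.68 on the log2 scale (SE 1.25, adjusted p = 0.00859). This rests on 2 and 13 UMIs in the microglia-like cells of WT and KO naïve and 0 in those of all 6 tumour-bearing libraries, so its size depends on how a count of 0 is handled and is no bound. For Slc2a1 the tumour effect was lower in endothelial cells by 1.93 (SE 0.61, adjusted p = 0.0375). In microglia-like cells Slc2a1 stood at 10.2 and 27.9 CPM in WT and KO naïve and at 18.0 to 89.2 in the tumour-bearing libraries, on 1 to 15 UMIs each. The adjusted p was 0.0861 with scaling by total UMIs and 0.252 with no filter on low counts. Against astrocytes none of 9 members passed (1.78% of 1577 genes did, and 2 members had an unadjusted p under 0.05), and against oligodendrocytes none of 10 (1.53% of 4195 genes, and 0 members unadjusted).

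Tumour cells held UMIs of all 10 members, at levels well below those of endothelial cells. The tumour cell class also took in 6 cells of WT naïve and 3 of KO naïve, which had no tumour. The 10 members summed to 2312 and 2608 CPM in them, against 632 to 955 in the tumour-bearing libraries. They are included in the levels by class pooled over all libraries. Over the 6 tumour-bearing libraries Bsg stood at 487 ± 76.6 CPM (SD, n = 6), Itm2a at 133 ± 48.9, Slc2a1 at 64.4 ± 20.0 and Tjp1 at 59.5 ± 14.2. Abcb1a (4.62), Slco1a4 (4.58) and Ocln (2.09) were near 0. Cldn5 stood at 12.3 ± 21.8, which came from KO intermediate with 56.7 CPM. There, 1 cell with 100814 UMIs and 10442 genes, which Scrublet did not mark but whose doublet score was among the top 5% of its library, and which held 935 endothelial marker UMIs, carried 270 of the 271 Cldn5 UMIs, all 62 Slco1a4 and all 57 Abcb1a UMIs. Between KO and WT tumour cells, with stage as a block, 9 members could be tested and none passed, where 2 of 13730 genes (0.0146%) did. Their values included 0.57 for Itm2a (adjusted p = 0.789), 0.19 for Bsg and 1.75 for Cldn5 (adjusted p = 0.882), the last resting on the same cell. None of the 9 had an unadjusted p under 0.05, and DESeq2 gave 0 called and 1 at that unadjusted threshold.

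The genes whose pattern over the classes was most like that of each member were found by Pearson's r of log2(CPM + 10) over the 13 classes, among 10226 genes. These values share libraries and clustering, and describe likeness only. Cldn5 was most like Rasip1 (r = 0.992), Foxq1 and 8430408G22Rik. Among the genes most like Ocln were Paqr5 (0.960) and Mecom, and among those most like Tjp1 were 4931406P16Rik (0.853) and Il6st. Slco1a4 was followed by St6galnac2 (0.973), Slc22a8 and Slc35f2, Abcb1a by Tek (0.958), Adgrf5 and Ptprb, and Abcg2 by Tcf15 (0.956), Gpr4 and Clec14a. Mfsd2a was closest to Caskin2 (0.914), Usp53 and Prex2, and Slc2a1 to Fas (0.888) and Notch4. Bsg was closest to Mfsd7c (0.969), St6galnac2 and Tmem88, and Itm2a to Ltbp4 (0.963), Tbx1 and Ly6c1. Tek and Ptprb, which encode the receptor Tie2 and a vascular phosphatase, and Ly6c1 were among the endothelial markers. Tjp1, Slc2a1 and Mfsd2a had the lowest of the leading coefficients.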

How the data were processed

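Single cells were measured by Drop-seq in 8 libraries. The authors deposited 1 table of UMI counts per library, not normalized, with 3000 barcodes each. The submitters' processing notes name bcl2fastq 2.0, STAR and GRCm38/mm10. The aligner's settings and the annotation are not given in the sources used here.

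Following the filters of the study's methods, each library gave its top 1000 barcodes by UMIs, genes had to occur in at least 30 cells, and cells needed 1000 genes or more. Clusters came from HDBSCAN (minimum 19 cells, scikit-learn 1.9.0 under Python 3.11.15) on a tSNE map (perplexity 50, Rtsne 0.17 under R 4.3.3) of the leading 50 principal components, computed on log2(CPM + 1). Classes were named from marker lists that held no member. These names were rebuilt here and may differ from the study's own. Doublets were kept, and removed as an alternative (235 cells). Scrublet in scanpy 1.11.5 marked 39 cells. In 5 libraries it marked under 0.5% of cells (1 to 4 cells each), and the 5% with the highest doublet scores were removed there instead. Counts were summed per library and class with at least 5 cells and tested by the two-sided quasi-likelihood test of edgeR 4.0.16 after filterByExpr and TMM scaling, with Benjamini-Hochberg adjustment and a threshold of 0.05. The SE is the log2 change divided by the square root of F. The study's own test compared single cells, which are not replicates. DESeq2 1.42.0, other scalings, filters, clusterings and cell definitions were alternatives. On simulated counts the endothelial comparison recovered 100% of 100 genes changed by a log2 of 2, KO against WT 94% and the genotype by tumour interaction 36%. Changes as small as those fitted for the members in endothelial cells, -0.83 to -0.16, were not simulated. These recoveries thus do not bear on them.

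The members and the gene lists were chosen with earlier results of these data known. Named were the members, of each list the genes past the threshold (at most 6, by size), and for each member the 3 genes most like it, a few of which are not reported here. Plvap and Apln were named after their values were seen. Expression in the tumour-bearing libraries reflects 1 mouse each, so p-values measure the spread between mice of different stages. Promoter sequences and gene positions came from RefSeq and GENCODE tables.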

Additional observations from a re-analysis of the deposited data

Results flagged for a closer look

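The values of 6 results stood apart. Over 39 sets of 5 or 6 libraries of 1 condition and class, 4 had an extreme library beyond Dixon's 95% critical value, where chance gives about 1 in 20. In tumour cells, Cldn5 was at 56.7 CPM in KO intermediate against 5.10 in the next library, and Abcb1a at 11.9 against 4.25 in the next. In oligodendrocytes, Tjp1 was at 86.0 CPM in KO intermediate, below the next lowest at 125, and Bsg at 375 in KO early, above the next at 199. In KO intermediate, 270 of 271 Cldn5 and 57 of 57 Abcb1a UMIs of the tumour cells came from 1 cell that was among the top 5% of its library by doublet score, though Scrublet did not mark it. The tumour effect differed between endothelial and microglia-like cells in 2 members by a test of the difference itself (edgeR's quasi-likelihood test), by 4.68 on the log2 scale for Abcb1a (adjusted p = 0.00859) and by -1.93 for Slc2a1 (adjusted p = 0.0375). The Abcb1a value is set against 0 UMIs in the microglia-like cells of all 6 tumour-bearing libraries and 2 and 13 in the naïve ones, so it is no bound, and the glial cells of KO naïve carried more UMIs of endothelial members than those of WT naïve.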

How the results depend on the processing

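The count of genes called in endothelial cells, 52 for tumour-bearing against naïve, was 87 with at least 10 cells per library, 83 with cells of at least 500 genes, 142 with no filter on low counts, 16 with only cells free of mural marker UMIs, 162 with the whole endothelial cluster and 243 with both vascular clusters (added after seeing the data). It ran from 36 to 87 with 1 library left out, the highest without WT late, and a lone naïve library was assumed to vary like the tumour-bearing ones. The members called were 0, but 1 with the whole endothelial cluster and 3 with both vascular clusters, and 0 with any library left out. Of 197 alternative values of the members, 195 were negative. The 2 others were Mfsd2a, at 0.017 without KO early (and -0.33 without KO late), and Slc2a1 at 0.14 with cells free of mural marker UMIs. Among the tumour-bearing libraries only WT early and KO intermediate, with 6 such cells each, reached the minimum of 5 cells in that setting. Ocln could not be tested in 3 of the 20 settings. With no filter the median of all genes moved to -0.37 and that of the members to -0.62. Leiden clustering added 1 WT late cell of 41065 UMIs to the endothelial class.

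For KO against WT in endothelial cells, 0 became 2 with at least 10 cells, 1 with cells of at least 500 genes, 2 with Leiden clustering, 6 with no filter and 2 with the whole endothelial cluster, and ran from 0 to 2 with 1 library left out, 2 being without WT late or KO late and 1 without WT early or KO early. The fit with cells free of mural UMIs could not be made. The interaction count was 0 in both alternatives. In astrocytes 6 became 11 with DESeq2, 10 with Leiden clustering, 55 with no filter and 10 with total UMI scaling, and with 1 library left out ran from 3 (without KO naïve) to 23 (without KO late). In oligodendrocytes 68 became 221 with no filter and ran from 3 (without KO naïve) to 89, with 33 without KO late. In microglia-like cells 514 ran from 77 (without KO naïve) to 596, with 90 without WT naïve. In tumour cells, KO against WT, 2 became 64 with DESeq2 and 0 with total UMI scaling, and ran from 4 (without WT or KO late) to 144 (without WT or KO intermediate). The count for endothelial against astrocyte effects, 28, became 9 and that against microglia-like effects, 207, became 94 with no filter. The share of endothelial cells with an Itm2a UMI moved to a difference of -4.10 percentage points after thinning. The cause was not tested for any of these.

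No paired analysis was possible because the labels give no replicate number that pairs naïve with tumour-bearing mice. Depth limited Ocln and Mfsd2a most, with 39 and 68 UMIs in the endothelial cells of all 6 tumour-bearing libraries.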
